A study of Mus musculus with 8 samples.

Results

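The 10 genes followed here encode glutamate receptor subunits, and they were followed in astrocytes of wild-type (WT) mice, isolated by flow sorting on postnatal day 29 from the cortex or from subcortical tissue. They comprise the AMPA receptor genes Gria1, Gria2, Gria3 and Gria4, the NMDA receptor genes Grin2c and Grin3a, the kainate receptor gene Grik2 and the metabotropic receptor genes Grm3, Grm5 and Grm7. The genes were taken from a list of names and matched by Ensembl gene identifier, and all 10 were found among the 55417 gene rows of each count table. Each of 4 mice, 2 females and 2 males, contributed tissue of both regions, which makes 4 cortical and 4 subcortical libraries, and a library number stands for its mouse. Mice 2 and 3 were the females. The labels name no treatment, and the sources used here do not give the gate or reporter of the sort.

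Glutamate is the main excitatory transmitter of the brain, and astrocytes both clear it and sense it. AMPA and kainate receptors are ion channels that glutamate opens within milliseconds, NMDA receptors are channels that pass calcium, and metabotropic receptors act through G proteins. An AMPA receptor is built from the products of the Gria genes, and those that hold the edited Gria2 product pass little calcium. In rodent astrocytes Grm3 and Grm5 are the best known metabotropic receptor genes, and Grm5 is known to decline as the brain matures.

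Gene counts summed to 3537852 to 4060891 per cortical library and 2484717 to 3829804 per subcortical library. Reads came from transcript 3′ ends, and levels are given as CPM, the counts scaled to a common library size after TMM normalization. A count of 0 in a library allowed a level of up to 0.70 to 1.44 CPM, by counting error alone. The 10 astrocyte marker genes summed to 31950 to 33167 CPM in the cortical against 20860 to 22603 CPM in the subcortical libraries, and the 3 most abundant of them were Slc1a2, Glul and Slc1a3. Of the 10 genes, 3 were higher in cortical cells (those named), 1 was lower and 6 were not called by edgeR. The gene that was lower was Aqp4, the water channel gene of astrocyte endfeet, at 483 ± 92.8 CPM in the cortical against 1047 ± 212 CPM in the subcortical libraries (SD, n = 4, edgeR adjusted p = 0.00023). Genes of other cells were present at lower levels and differed between the regions. The 14 neuron markers summed to 309.7 to 696 CPM in the cortical against 106 to 166 CPM in the subcortical libraries. None was without counts, and of 12 tested 3 were higher and 1, Nefl, was lower. Nrgn, Camk2a and Nefl were the most abundant. Nrgn averaged 195.8 CPM in the cortical against 8.73 CPM in the subcortical libraries, and Camk2a 86.4 against 5.97 CPM. Nefl averaged 12.1 against 39.9 CPM, and Snap25, which was not called, 12.9 against 10.01 CPM. The cortical sums thus rest mostly on Nrgn and Camk2a and do not measure the share of neurons. The 7 oligodendrocyte markers summed to 816 to 1308 CPM in the cortical against 2174 to 5497 CPM in the subcortical libraries, with 6 of 7 lower and Cnp and Mag among the most abundant. The 7 oligodendrocyte precursor markers summed to 243 to 315 CPM in the cortical against 395 to 683 CPM in the subcortical libraries and were led by Olig1, Olig2 and Sox10. Of these 7, Olig1 and Olig2 were lower in cortical cells, and Cspg4, at 10.7 ± 2.22 CPM in the cortical against 11.01 ± 3.67 CPM in the subcortical libraries (SD, n = 4), and Sox10 were not called. The other 3 were not tested, Gpr17 with 0 counts throughout, Pdgfra with 6 counts over the cortical and 5 over the subcortical libraries, and C1ql1 with 35 over the cortical and 1 over the subcortical libraries. The 4 Bergmann glia markers, which the astroglia of the cerebellum share with other astrocytes, summed to 379.8 to 575 CPM in the cortical against 766 to 1147 CPM in the subcortical libraries, with 2 of 4 lower and Itih3, Gdf10 and Vim the most abundant. Microglia markers, Csf1r and Cx3cr1 among them, summed to 148 to 335 CPM in the cortical against 110.1 to 188 CPM in the subcortical libraries. Endothelial and mural markers, led by the mural genes Rgs5, Vtn and Pdgfrb, summed to 441 to 974 CPM in the cortical against 313 to 1121 CPM in the subcortical libraries. Of the endothelial genes, Cldn5 had 0 counts over the cortical and 8 over the subcortical libraries, Ly6c1 had 6 and 0, and Pecam1 had 13 and 19. Flt1 averaged 4.56 CPM in the cortical against 2.67 CPM in the subcortical libraries. Ependymal markers (Rarres2, Foxj1 and Ccdc153) summed to 61.7 to 102 CPM in the cortical against 102 to 118 CPM in the subcortical libraries. The part of these other cells in the receptor differences was not tested.

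**Figure D1:**
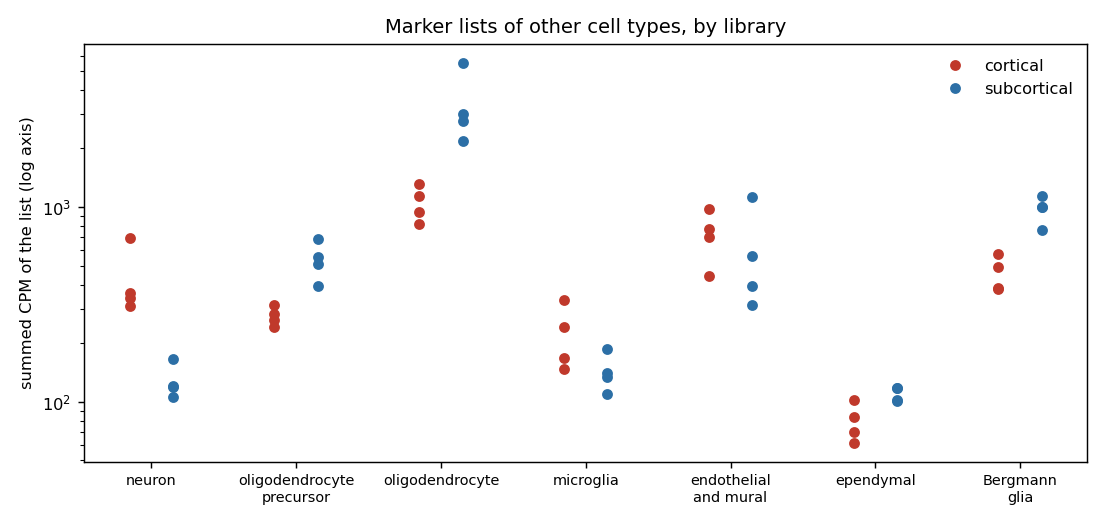
Summed CPM (log axis) of the marker lists of 7 other cell types in each library, cortical in red and subcortical in blue. The neuron sums lie between 309.7 and 696 CPM in cortical libraries, above all subcortical ones, with Nrgn and Camk2a leading the cortical sums. The oligodendrocyte sums lie between 816 and 1308 CPM in cortical libraries, below all subcortical ones.

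The comparison of regions asked which glutamate receptor genes differ between cortical and subcortical astrocytes. Grin2c and Grm3 were higher in cortical cells and Gria1 and Gria4 were lower. Gria2, Gria3, Grin3a, Grik2 and Grm5 were tested without a call, and Grm7 had too few counts for a test. By edgeR's quasi-likelihood test at a Benjamini-Hochberg adjusted p of 0.05, 2 of the 9 tested members were higher in cortical libraries, where 3.42% of all 11781 tested genes were higher, and 2 were lower, where 3.39% were. In either direction 6.81% of all tested genes were called. The 4 regional libraries of either side did not overlap for the same 4 members, which held for 12.2% of all tested genes. Gria4 passed the low-count filter through its subcortical libraries alone, so the members' counts are given as a description and are not read against these shares. In these bulk samples, fewer cells with a transcript and less transcript per cell cannot be told apart.

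**Figure D2:**
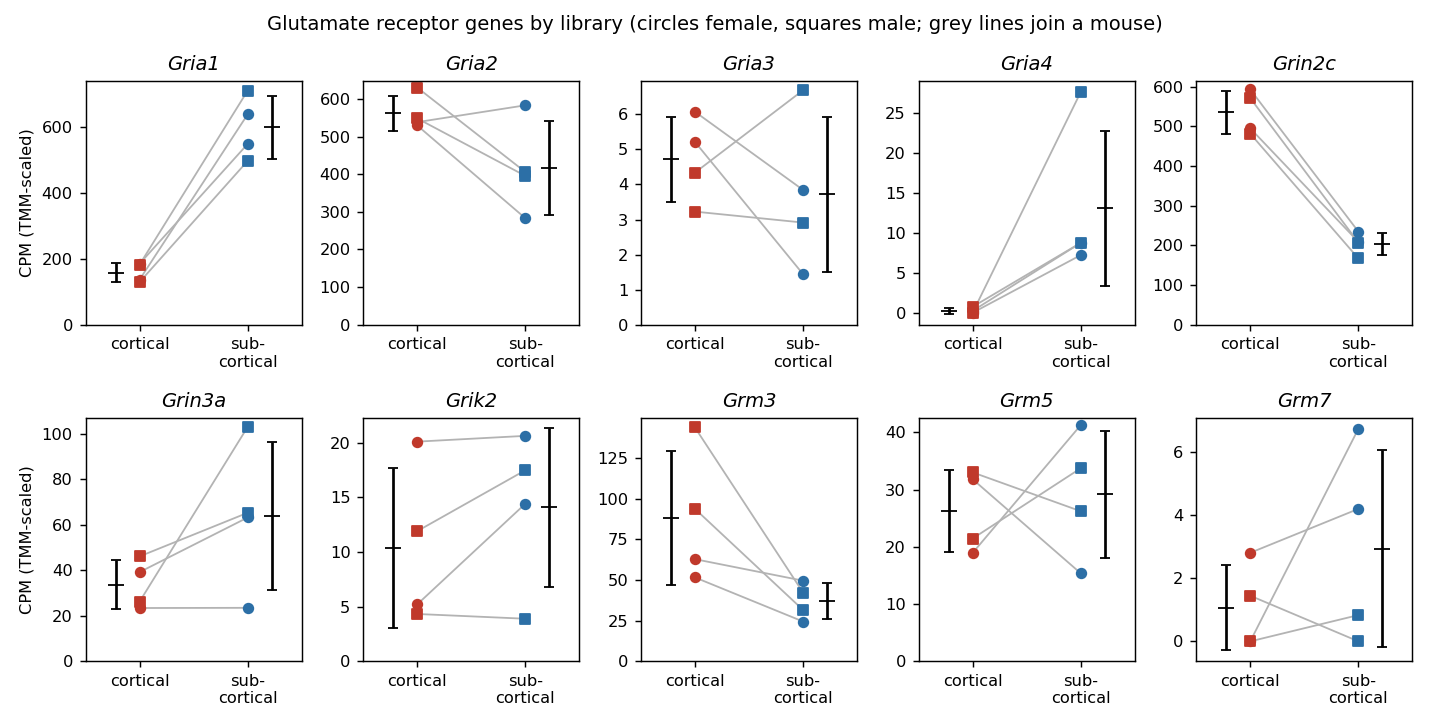
Level of each of the 10 glutamate receptor genes in CPM, cortical libraries in red on the left and subcortical libraries in blue on the right of each panel. Circles are females and squares males, grey lines join the libraries of a mouse, and black bars give the mean ± SD of 4 libraries. The lines of Gria1 and Gria4 climb towards subcortical in all 4 mice and those of Grin2c and Grm3 descend in all 4 mice.

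Gria1 (ENSMUSG00000020524), whose product is an AMPA receptor subunit, had 129.8, 137, 185 and 183 CPM in cortical libraries 1 to 4, against 498, 640.1, 550.04 and 712 CPM in subcortical libraries 1 to 4. The highest cortical library lay well below the lowest subcortical library, and the order held in 4 of 4 mice. The level averaged 159 ± 29.4 CPM in the cortical against 600.2 ± 94.8 CPM in the subcortical libraries (SD, n = 4), and the log2 fold change was -1.92 (SE 0.18, edgeR adjusted p = 1.7e-07). This is 3.78-fold lower in cortical cells.

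Gria2 (ENSMUSG00000033981), the subunit gene that limits calcium entry through the receptor, had 549, 539, 529.8 and 631 CPM in cortical libraries 1 to 4. In subcortical libraries 1 to 4 it had 396, 583, 283 and 406 CPM. It was higher in the cortical library of 3 of 4 mice, and the exception was mouse 2. The log2 fold change, 0.43 (SE 0.19, 95% interval 0.04 to 0.82), was not called (edgeR adjusted p = 0.218), and without subcortical 2 it passed (0.64, edgeR adjusted p = 0.032).

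Gria4 (ENSMUSG00000025892), another AMPA subunit gene, had 3, 0, 1 and 0 counts in cortical libraries 1 to 4, which is 0.74, 0, 0.23 and 0 CPM. In subcortical libraries 1 to 4 it had 21, 15, 25 and 99 counts, which is 8.74, 7.21, 8.74 and 27.6 CPM. The gene was thus near the detection limit in every cortical library and present in every subcortical library, with subcortical 4 far above the other subcortical libraries. Scaled for library size, the counts were 59.6 times higher in subcortical libraries (95% counting interval 22.8 to 221), or 33.8 times without subcortical 4 (12.6 to 128). The fitted log2 fold change was -5.55 (SE 0.93, edgeR adjusted p = 0.00041), and it was -6.80 without cortical 1 and -4.87 without subcortical 4. Since the gene entered the test only through the region where it was higher, its adjusted p adds little to these counts.

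Gria3 (ENSMUSG00000001986), the remaining AMPA subunit gene, was low in all libraries, at 3.23 to 6.07 CPM in the cortical against 1.44 to 6.69 CPM in the subcortical ones. The ranges overlapped, and the log2 fold change was 0.31 (SE 0.75, 95% interval -1.25 to 1.88, edgeR adjusted p = 0.898). The interval takes in no difference as well as differences of 2-fold in either direction.

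The make-up of the AMPA receptor transcripts therefore differed between regions, as the shares within each library show, which do not depend on how libraries are scaled. Gria1 took 19.0, 20.1, 25.7 and 22.4% of the Gria1 to Gria4 counts in cortical libraries 1 to 4, against 55.03, 52.0, 65.04 and 61.8% in subcortical libraries 1 to 4. The exact binomial 95% intervals of these shares spanned 17.6 to 27.3% over the cortical and 49.995 to 66.9% over the subcortical libraries, for counting error only. Gria2 took 77.5 ± 3.04% of the counts in cortical and 39.9 ± 6.66% in subcortical libraries (SD, n = 4). Gria2 counts thus exceeded Gria1 counts in 4 of 4 cortical libraries and in 0 of 4 subcortical ones. Both genes' transcripts are counted at their 3′ ends, about 1 fragment per transcript, but how completely each 3′ end is annotated and read is not known, so that a share holds between regions rather than between genes. Gria4 took 0.035 ± 0.051% in cortical and 1.24 ± 0.79% in subcortical libraries (SD, n = 4). The summed level of the 4 genes was 726 ± 64.2 CPM in the cortical against 1034 ± 187 CPM in the subcortical libraries (SD, n = 4), and the ranges of 681 to 818 and 846 to 1232 CPM did not overlap.

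**Figure D3:**
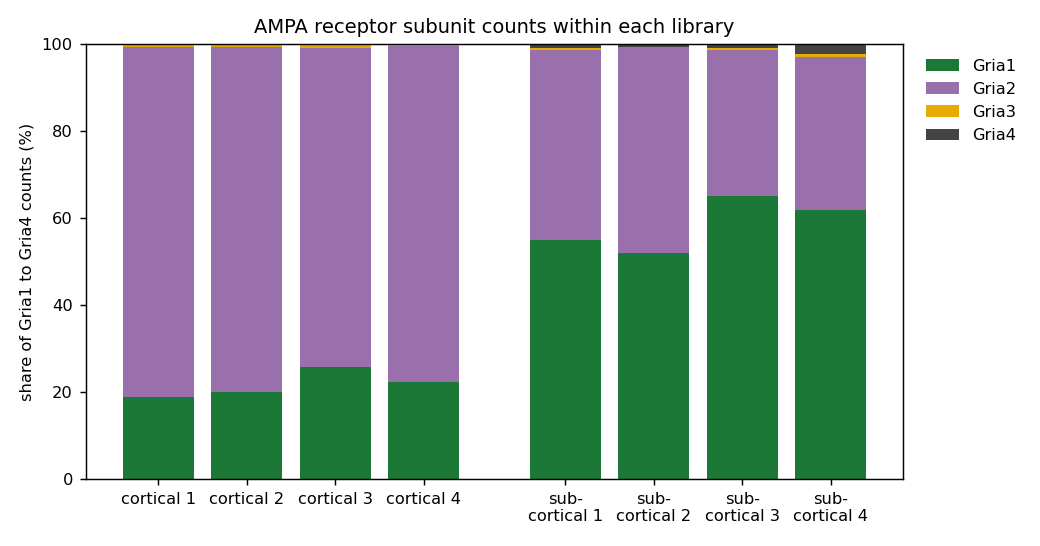
Share of each AMPA receptor gene in the summed counts of Gria1, Gria2, Gria3 and Gria4, in percent, as stacked bars for the cortical libraries on the left and the subcortical libraries on the right. Gria1 takes 19.0 to 25.7% in cortical and 52.0 to 65.04% in subcortical libraries.

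Among the NMDA receptor genes, Grin2c (ENSMUSG00000020734), whose product is a regulatory subunit with weak magnesium block, stood at 572, 495, 593 and 482 CPM in cortical libraries 1 to 4. It stood at 207, 209, 235 and 167 CPM in subcortical libraries 1 to 4. The regions were far apart and each varied little, with means of 536 ± 55.2 CPM in the cortical against 205 ± 27.9 CPM in the subcortical libraries (SD, n = 4). The log2 fold change was 1.39 (SE 0.16, edgeR adjusted p = 5.2e-06), or 2.62-fold higher in cortical cells and in 4 of 4 mice.

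Grin3a (ENSMUSG00000039579), a glycine-binding subunit gene, had 46.1, 23.46, 39.2 and 26.3 CPM in cortical libraries 1 to 4, against 65.3, 23.55, 63.3 and 103 CPM in subcortical libraries 1 to 4. It was lower in the cortical library of 4 of 4 mice, but by almost nothing in mouse 2, and the regions overlapped. The log2 fold change, -0.93 (SE 0.33, 95% interval -1.61 to -0.24), was not called (edgeR adjusted p = 0.111). It passed without subcortical 2 (-1.19, edgeR adjusted p = 0.011) and without the low-count filter (edgeR adjusted p = 0.0087), while without subcortical 4 the change was -0.59 (edgeR adjusted p = 0.422).

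The kainate receptor gene Grik2 (ENSMUSG00000056073) varied more within a region than between regions, with 11.9, 5.21, 20.1 and 4.34 CPM in cortical libraries 1 to 4. The subcortical libraries had 17.5, 14.4, 20.6 and 3.90 CPM. The lowest values of both regions came from mouse 4 and the highest from mouse 3. The log2 fold change was -0.43 (SE 0.54, 95% interval -1.56 to 0.70, edgeR adjusted p = 0.774).

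Of the metabotropic receptor genes, Grm3 (ENSMUSG00000003974), whose product couples to Gi proteins, had 93.8, 51.6, 62.8 and 144 CPM in cortical libraries 1 to 4. In subcortical libraries 1 to 4 it had 31.6, 24.5, 49.6 and 42.3 CPM. The regions came close, since the lowest cortical library lay just above the highest subcortical one, while the cortical library was the higher in 4 of 4 mice. The log2 fold change was 1.24 (SE 0.29, edgeR adjusted p = 0.0094), or 2.36-fold higher in cortical cells. Without cortical 4, the highest library, it was 0.90 and lost its call (edgeR adjusted p = 0.057). Cortical 4 was also the library with the highest neuron marker sum, at 696 CPM, led by Nrgn at 309 CPM and Camk2a at 190.04 CPM. The part of neurons in the Grm3 difference was not tested.

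Grm5 (ENSMUSG00000049583), whose product couples to Gq proteins and releases calcium from stores, had 33.0, 31.8, 18.9 and 21.4 CPM in cortical libraries 1 to 4. It had 26.2, 15.4, 41.2 and 33.7 CPM in subcortical libraries 1 to 4. The regions overlapped fully, 2 of 4 mice were higher in the cortical library, and the log2 fold change was -0.16 (SE 0.32, 95% interval -0.82 to 0.50, edgeR adjusted p = 0.874). Grm7 (ENSMUSG00000056755), a Gi-coupled receptor gene best known from presynaptic terminals, had 18 counts over the cortical and 28 over the subcortical libraries, with 0 counts in 2 cortical libraries and in subcortical 4. It was below the filter and was not tested. An annotated antisense gene shares exon sequence with Grm7, and no source used here says whether reads were counted by strand, so its few counts are uncertain. Annotated microRNA genes share exon sequence with Gria2, Gria3 and Gria4 on the same strand and with Grin2c on the opposite strand. Their part in the counts of these members was not tested.

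**Figure D4:**
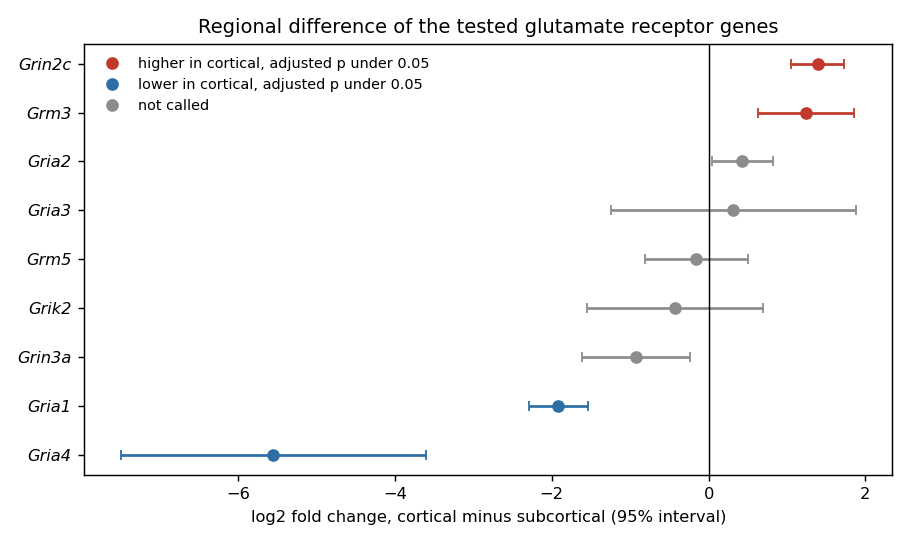
Log2 fold change (cortical minus subcortical) with its 95% interval from edgeR for the 9 tested glutamate receptor genes. Grin2c at 1.39 and Grm3 at 1.24 lie above 0 and Gria1 at -1.92 and Gria4 at -5.55 below 0, whereas the intervals of Gria2 and Grin3a clear 0 without a call over all genes.

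For 3 of the genes with a regional call, RefSeq promoter windows were at hand (build GRCm38.p6, 250 bases before to 50 after the annotated start), and they are shown because these genes differ in opposite directions. Windows were found for 6 of the 10 members. Of these, the 3 windows shown were searched on both strands for TTGGC, the recognition core of the nuclear factor I family of astrocytic transcription factors. They were also searched for TAATTA, the core bound by LIM homeodomain factors such as Lhx2, and matches are in capitals. The Grin2c window is chr11:115267194-115267493 (minus strand), that of Grm3 is chr5:9725303-9725602 (minus strand) and that of Gria4 is chr9:4796185-4796484 (minus strand).
Grin2c: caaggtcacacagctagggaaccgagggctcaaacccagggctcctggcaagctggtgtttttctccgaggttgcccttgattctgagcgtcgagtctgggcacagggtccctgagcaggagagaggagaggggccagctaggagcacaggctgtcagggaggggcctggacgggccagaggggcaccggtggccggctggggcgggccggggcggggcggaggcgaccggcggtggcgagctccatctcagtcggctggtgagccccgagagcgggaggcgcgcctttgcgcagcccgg
Grm3: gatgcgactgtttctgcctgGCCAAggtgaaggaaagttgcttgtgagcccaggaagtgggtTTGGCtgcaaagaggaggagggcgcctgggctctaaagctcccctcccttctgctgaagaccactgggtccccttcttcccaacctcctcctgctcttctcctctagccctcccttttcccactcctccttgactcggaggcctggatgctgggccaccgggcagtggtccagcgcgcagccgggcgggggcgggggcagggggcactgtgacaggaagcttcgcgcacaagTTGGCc
Gria4: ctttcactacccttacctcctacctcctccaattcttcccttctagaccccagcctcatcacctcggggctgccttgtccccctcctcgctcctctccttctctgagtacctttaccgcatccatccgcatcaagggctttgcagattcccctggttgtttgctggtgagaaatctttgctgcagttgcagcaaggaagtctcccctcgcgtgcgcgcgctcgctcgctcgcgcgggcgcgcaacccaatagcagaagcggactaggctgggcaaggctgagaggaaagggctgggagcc
The Grm3 window held 3 matches of TTGGC and the windows of Grin2c and Gria4 held 0, while TAATTA matched in none of the 3. Of 32851 promoter windows of the same length, 46.7% held TTGGC and 5.29% held TAATTA. The matches describe the letters only. The G and C content was 70.0% for Grin2c, 63.7% for Grm3 and 59.7% for Gria4.

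Genes that work with these receptors were followed in lists. Of 11 other ionotropic receptor genes, 6 were tested, 0 were higher, 1 was lower and 5 were not called, with a median log2 fold change of -0.0096, against -0.0099 over all tested genes. The gene that fell was Grik4, a kainate subunit gene, at 1.49, 4.17, 12.1 and 3.85 CPM in cortical libraries 1 to 4 and 13.7, 37.0, 25.9 and 35.9 CPM in subcortical libraries 1 to 4. The regions did not overlap, and the log2 fold change was -2.36 (SE 0.50, edgeR adjusted p = 0.0037), or -3.14 without cortical 3. Grin1, whose product every NMDA receptor contains, had 20, 0, 27 and 65 counts in cortical libraries 1 to 4 and 0, 1, 8 and 1 counts in subcortical libraries 1 to 4. Its log2 fold change of 2.85 (SE 1.16) was not called (edgeR adjusted p = 0.182). The cortical library with the most Grin1 counts, cortical 4, also had the highest neuron marker sum, and the part of neurons was not tested. The kainate gene Grik5 had a log2 fold change of 0.94 (edgeR adjusted p = 0.124).

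Of the 5 genes of this list below the filter, Grin2a, an NMDA subunit gene, had the most counts, with 5, 10, 3 and 43 in cortical libraries 1 to 4 and 0, 0, 2 and 1 in subcortical libraries 1 to 4. Most of its counts came from cortical 4, the library with the highest neuron marker sum, and the part of neurons was not tested. The direction was the opposite in Grik1, a kainate subunit gene, with 0 counts over the cortical and 20 over the subcortical libraries. Taking 3 counts over the 4 cortical libraries as the floor, the scaled counts were 9.94 times higher in subcortical libraries. This value leaves out the counting error of the 20 counts. Grin3b, which encodes the other glycine-binding NMDA subunit, had 2 counts over the cortical and 50 over the subcortical libraries, a scaled count ratio of 37.3 in favour of subcortical (95% counting interval 9.79 to 316). Subcortical 4 held 33 of the 50 counts, and without it the ratio was 18.9 (4.48 to 168). The remaining genes, Grin2d and Grik3, had at most 12 counts in all. None of the 5 was tested, and they were picked out after their values were seen. Of 5 other metabotropic genes, 2 were tested, 0 were called by edgeR and 1 had an unadjusted p under 0.05. That gene, the Gi-coupled receptor gene Grm4, had 6.45 ± 5.28 CPM in the cortical against 18.5 ± 5.53 CPM in the subcortical libraries (SD, n = 4). Its edgeR adjusted p was 0.098, and 0.037 with the mouse as a block; limma-voom called it (adjusted p = 0.043), whereas DESeq2 called 0 of the 2 genes.

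Auxiliary subunits set the gating and surface delivery of AMPA and kainate receptors. Of 15 listed, 11 were tested, 1 was higher in cortical cells, 2 were lower and 8 were not called (median log2 fold change 0.20). Cacng5, a transmembrane AMPA receptor regulatory protein gene, had 8.68, 19.6, 2.57 and 3.85 CPM in cortical libraries 1 to 4 and 40.8, 34.6, 39.1 and 35.1 CPM in subcortical libraries 1 to 4. All cortical libraries lay below all subcortical ones, with the log2 fold change at -2.11 (SE 0.45, edgeR adjusted p = 0.0036), or -2.89 without cortical 2. Cacng4, of the same family, averaged 46.5 ± 8.65 CPM in the cortical against 87.5 ± 19.4 CPM in the subcortical libraries (SD, n = 4, edgeR adjusted p = 0.013). Cacng7, also of the family, went the other way, with 203 ± 52.9 CPM in the cortical against 115 ± 30.2 CPM in the subcortical libraries (SD, n = 4, edgeR adjusted p = 0.021). The Cacng4 call was lost without cortical 2 or 3 or subcortical 1 (edgeR adjusted p = 0.054 to 0.059), and the Cacng7 call without cortical 3 or 4 or subcortical 3 (edgeR adjusted p = 0.070 to 0.080). Cacng2, the founding member of the family, known mainly from neurons, had 140 counts over the cortical and 18 over the subcortical libraries and missed the threshold (log2 fold change 2.45, edgeR adjusted p = 0.058). It passed with DESeq2 (adjusted p = 0.021), but not with limma-voom (adjusted p = 0.283) or with the mouse as a block (edgeR adjusted p = 0.096). Since Cacng2 entered the test only through the cortical libraries, where it was higher, these adjusted p-values add little to its counts.

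Of 16 listed anchoring and trafficking genes, 15 were tested, 1 was higher, 0 were lower and 14 were not called (median log2 fold change 0.068). Dlg4, which encodes the postsynaptic scaffold PSD-95, had 511, 437, 587 and 553 CPM in cortical libraries 1 to 4 and 232, 279, 281 and 428 CPM in subcortical libraries 1 to 4. Only a narrow gap separated the regions, between cortical 2 and subcortical 4, and the log2 fold change was 0.77 (SE 0.19, edgeR adjusted p = 0.010). The neuron marker sums, mostly Nrgn and Camk2a in the cortical libraries, were also higher in all cortical libraries. Subcortical 4, with the most Dlg4 of its region, had the lowest neuron sum (106 CPM). The part of neurons in the Dlg4 difference was not tested. The AMPA receptor scaffold gene Grip1 (log2 fold change 0.92, edgeR adjusted p = 0.155), the group I metabotropic receptor scaffold gene Homer1 (0.74, edgeR adjusted p = 0.312) and the lipase gene Abhd12 (0.26, edgeR adjusted p = 0.543) were not called. Among the enzymes that edit receptor transcripts, Adar averaged 22.4 ± 9.81 CPM in the cortical against 14.3 ± 3.92 CPM in the subcortical libraries, and Adarb1, which edits the Gria2 transcript, averaged 6.21 ± 3.99 CPM in the cortical against 5.50 ± 0.94 CPM in the subcortical libraries (SD, n = 4). Neither was called (edgeR adjusted p = 0.425 and 0.943), 0 of 2 had an unadjusted p under 0.05, DESeq2 and limma-voom called 0 of 2, and Adarb2 had 0 counts in all 8 libraries.

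Downstream of the metabotropic receptors, 15 of 18 listed genes were tested, 1 was higher, 2 were lower and 12 were not called (median log2 fold change 0.014). Gnao1, which encodes the Go alpha subunit, stood at 1338, 1262, 1374 and 1391 CPM in cortical libraries 1 to 4, against 163, 197, 157 and 155 CPM in subcortical libraries 1 to 4. The regions were separated by a wide gap, 7.99-fold or 3.00 on the log2 scale (SE 0.16, edgeR adjusted p = 4.9e-11). Plcb4, a Gq-activated phospholipase gene, averaged 17.9 ± 2.79 CPM in the cortical against 43.9 ± 4.63 CPM in the subcortical libraries (SD, n = 4, edgeR adjusted p = 0.0025). Grk3, a receptor kinase gene, averaged 136 ± 21.1 CPM in the cortical against 242 ± 62.4 CPM in the subcortical libraries (SD, n = 4, edgeR adjusted p = 0.0088). Plcb3, another phospholipase gene, was 1.56 higher on the log2 scale (SE 0.48) without a call (edgeR adjusted p = 0.056), but passed with DESeq2 (adjusted p = 0.030).

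**Figure D5:**
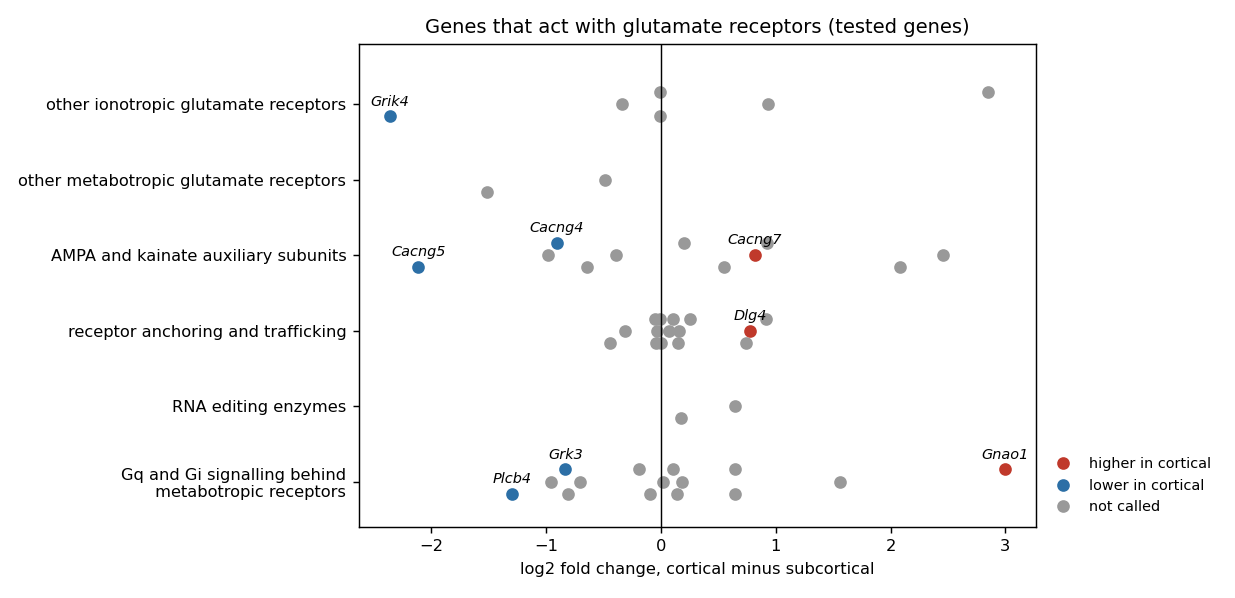
Log2 fold change (cortical minus subcortical) of the tested genes of 6 lists that act with glutamate receptors, each dot a gene, red where higher and blue where lower in cortical at an edgeR adjusted p of 0.05, grey where not called. Gnao1 at 3.00 lies farthest to the right, and Grik4 at -2.36 and Cacng5 at -2.11 farthest to the left.

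The patterns of Gria1 and Grin2c over the 8 libraries were set against those of all tested genes, by the root mean square difference of log2 CPM after centring each gene. The genes most like Gria1 were Kcnd2, an A-type potassium channel gene (difference 0.21), Chl1, a cell adhesion gene (0.21), Vwa1, a matrix protein gene (0.27), and Sparc, a secreted matrix protein gene (0.29). Kcnd2 averaged 61.8 ± 11.6 CPM in the cortical against 229 ± 13.6 CPM in the subcortical libraries (SD, n = 4). Those most like Grin2c were Slco1c1, a thyroid hormone transporter gene (0.13), Gpm6a, a membrane glycoprotein gene (0.17), Pak1, a kinase gene (0.18), and Fam49b (0.19). Slco1c1 averaged 1048 ± 110.1 CPM in the cortical against 360.1 ± 51.4 CPM in the subcortical libraries (SD, n = 4). The 8 libraries that the measure runs over are those of the regional comparison.

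The sexes were compared because the title of the series names female mice. Counts were summed over both regions per mouse, and 2 female mice were set against 2 male mice. By edgeR 0 of 10 tested members passed an adjusted p of 0.05, which 0.0373% of 13402 tested genes passed. At an unadjusted p under 0.05 there was 1 member. The share of all genes at that unadjusted p is not given here, so this 1 member is not read as a sex difference. That member was Grm3, with 42.5 and 58.3 CPM in the females and 71.4 and 97.3 CPM in the males. Both females lay below both males, with a log2 fold change (female minus male) of -0.74 (SE 0.26, 95% interval -1.29 to -0.19, edgeR adjusted p = 0.999). Grin3a had 23.8 and 49.5 CPM in the females and 53.9 and 62.2 CPM in the males (log2 fold change -0.66, SE 0.32, edgeR adjusted p = 0.999).

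The difference between regions was also compared between the sexes, with 2 libraries per sex and region. By edgeR 0 of 10 members passed for this interaction, 0 had an unadjusted p under 0.05, and 0% of 13334 tested genes passed. DESeq2 also called 0 members for sex and 0 for the interaction. Grm3 came nearest, with a regional log2 fold change of 0.62 (SE 0.36) in females and 1.67 (SE 0.37) in males, a difference of -1.05 (SE 0.51, edgeR adjusted p = 1). The regional change of Gria1 was -1.88 (SE 0.27) in females and -1.96 (SE 0.27) in males, and that of Grin2c was 1.30 (SE 0.24) in females and 1.49 (SE 0.24) in males. These changes had the same direction in both sexes, and each rests on 2 mice per sex.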

How the data were processed

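RNA of 8 libraries, 4 cortical and 4 subcortical, was prepared with the RNeasy Plus Micro kit and the forward QuantSeq 3′ kit, per the labels' protocols. FastQC 0.11.5, STAR 2.6.0, HTSeq 0.9.0, DESeq2 1.35.0 and the build GRCm39 are named in the submitters' processing notes, without settings. The deposited values are whole-number read counts for each gene and were used without change. The 5 HTSeq summary rows of each table were left aside; reads without a feature were 30.2 to 40.7% of a library. The 8 columns of normalized values in a series table were not used. Symbols were matched by identifier for 52083 of 55417 rows.

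Region was tested with edgeR 4.0.16 (R 4.3.3), using filterByExpr, TMM factors and quasi-likelihood tests, with Benjamini-Hochberg adjustment over all 11781 tested genes. The model held region only, so the main test did not use the pairing of libraries by mouse. The filter kept genes with 15 counts in total and a CPM worth 10 counts, at the median library size, in at least 4 libraries, the size of a region group. Fold changes are cortical over subcortical and female over male. The fit was tested on simulated data. Alternatives were RLE size factors, DESeq2 1.42.0, limma-voom (limma 3.58.1), no filter, a mean of at least 5 CPM, the mouse as a block, sex as a covariate, and each library left out. Log2 CPM for likeness used a prior count of 2.

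Titles give region, sex and mouse. The mouse numbers pair the samples, since both samples of a number are from the same animal; after subtracting each region's mean, r over genes was 0.0195 to 0.0592 within a mouse and -0.0841 to 0.0471 between mice. No 2 libraries of a region were duplicates (their chi-square was 12.3 to 26.4 times its degrees of freedom). Members, lists and rules were chosen with earlier results of these data known. Named genes are all members, up to 4 genes with the smallest p of each pathway list plus any called, the 3 most abundant genes of each marker list, and the 4 genes most like Gria1 and Grin2c; a few genes that the rule names are not reported here. Overlapping genes were looked up in the GENCODE M21 annotation, of another build, by position relative to each other only.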

Additional observations from a re-analysis of the deposited data

Results flagged for a closer look

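Subcortical 4 stood apart from the other 3 subcortical libraries in its Gria4 level, at 27.6 CPM against 7.21 to 8.74 CPM. The gap to the nearest library was 0.925 of the range of the group. Of 28 groups of 4 values examined in this way (the levels of the 10 members and the 4 AMPA shares in each region) 1 was singled out, and chance singles out about 1 in 20. In the same library the oligodendrocyte precursor markers summed to 395 CPM and the oligodendrocyte markers to 2174 CPM, both the lowest of the subcortical libraries, and the neuron markers to 106 CPM, the lowest of all 8. Whether these sums bear on the Gria4 level was not tested.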

How the results depend on the processing

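Over all genes the count called by region lay between 614 and 1055 under the 15 alternatives, against 802. Of the members, 2 were higher and 2 lower with RLE size factors, DESeq2, limma-voom, a mean of at least 5 CPM, sex as a covariate and the mouse as a replicate block, which called 885 genes in all and changed no member's call and, among the named pathway genes, that of Grm4. Without the low-count filter 3 were lower. Leaving out single libraries gave 1 to 3 higher and 2 to 3 lower, with 1 higher without cortical 4 (Grm3 lost) and 3 of each without subcortical 2 (Gria2 and Grin3a gained). Among single genes, the uncalled change of Grm5 lay between -0.36 and 0.055 without single libraries, positive without subcortical 3, and that of Adarb1 was -0.13 with limma-voom and -0.042 with the block, and lay between -0.29 (without cortical 4) and 0.47 without single libraries. The cause of these shifts was not tested. Beside the calls given above, Cacng2 was called with a mean of at least 5 CPM and without subcortical 4, and Grm4 with limma-voom, without the filter and without cortical 3. The Gria1 share difference of -36.7 percentage points lay between -38.8 and -34.5 without single libraries. The counts of members called by sex (0) and for the interaction (0) stayed at 0 under their 7 and 12 alternatives. Depth limits Gria3, Gria4 in cortical cells and Grm7, and the sex tests rest on 2 mice per sex. The Gria4 and Grin3b count ratios without subcortical 4 were added after seeing the data.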

Other observations

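Subcortical 4 also held the highest levels of Grin3a, at 103 CPM against 23.55 to 65.3 CPM in the other subcortical libraries, and of Grin3b, at 9.19 CPM against 1.44 to 2.91 CPM. The inositol trisphosphate receptor gene Itpr2, through which Gq-coupled receptors release calcium in astrocytes, averaged 247 ± 25.7 CPM in the cortical against 244 ± 24.9 CPM in the subcortical libraries (SD, n = 4), which is 0.01 on the log2 scale (SE 0.16, edgeR adjusted p = 0.983). Itpr1, of the same family, averaged 16.6 ± 4.23 CPM in the cortical against 32.4 ± 7.25 CPM in the subcortical libraries (SD, n = 4). Its regions did not overlap, but its log2 fold change of -0.96 was not called (edgeR adjusted p = 0.063). The NMDA subunit gene Grin2b averaged 73.5 ± 20.9 CPM in the cortical against 74.1 ± 23.1 CPM in the subcortical libraries (SD, n = 4, log2 fold change -0.0090, edgeR adjusted p = 0.992). Itpr1, Itpr2, Grin2b and Grin3b were picked out after their values were seen.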
